A study of Mus musculus with 4 samples.

Results

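Intronic circles of short introns are RNAs listed as circular that begin at the 5′ splice site of an intron and end inside it. The intron is at most 500 nt long. They were taken as the intronic entries of the 4 deposited circle lists whose intron was at most 500 nt long and whose end lay more than 50 nt from the intron's 3′ end, with mitochondrial entries left out. The rule found 4552 circles of 69136 in all, from 704 introns on 20 chromosomes, with 20316 reads. In addition, 59894 intronic circles came from introns over 500 nt, and 570 ended within 50 nt of the 3′ end of their intron.

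The series profiled circular RNAs in C2C12, a mouse muscle precursor cell line whose myoblasts differentiate into myotubes in low serum. All 4 libraries came from cells kept in medium with 2% horse serum for 3 to 4 days. The 2 RPAD libraries were made from RNA digested with RNase R for 30 min, polyadenylated and depleted of poly(A)+ RNA, which removes linear RNA. The 2 total RNA libraries had no such treatment, and ribosomal RNA was depleted from both kinds. The labels give C2C12 for every library although their RNase R protocol names HeLa RNA. Nothing says that replicate libraries were grown as separate cultures, so p-values measure a spread that may be technical. Host transcripts could not be paired with gene symbols here (0 of 725 matched), so introns are given by mm9 position, counted from 1, and the labelled cell type was not checked against markers.

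An excised intron leaves the spliceosome as a lariat, in which the 5′ splice site is joined to the branch point a short way upstream of the 3′ splice site. Debranching enzyme normally opens the lariat, and the linear intron is then degraded. Intronic circles that escape debranching are known as a class of nuclear RNA, and RNase R, which digests linear RNA from the 3′ end, degrades the tail of a lariat but not its loop. A circle that ends far upstream of the 3′ end does not end where a branch point usually lies. Branch points of the introns described here were not examined.

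All 4552 circles began at the 5′ end of their intron, so circles of 1 intron differ in their end alone and are not independent of each other. Of the circles, 4124 (90.6%) were listed in 1 library and 46 in all 4. Of the introns, 582 (82.7%) were listed in 1 library and 16 in all 4. The libraries held 150478 and 191246 back-splice reads in RPAD and 38346 and 35981 in total RNA. Shares below are of these totals and so are relative to the other circles of the library.

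Short introns took a larger share of back-splice reads in RPAD, while fewer of them were listed there. Their circles held 8316 and 9078 reads in RPAD libraries 1 and 2, against 1498 and 1424 in total RNA libraries 1 and 2. The share was 5.53% (95% Clopper-Pearson interval 5.41 to 5.64) and 4.75% (4.65 to 4.84) in RPAD, against 3.91% (3.71 to 4.11) and 3.96% (3.76 to 4.16) in total RNA. Both RPAD libraries lay above both total RNA libraries. The means were 5.14 ± 0.551% in RPAD and 3.93 ± 0.0361% in total RNA (SD, n = 2 each; exact two-sided permutation test, p = 0.333, the smallest p that 2 libraries against 2 can give). The difference of 1.204 percentage points rested on a pair of introns. Without the chromosome 9 intron of 442 nt and the chromosome 2 intron of 497 nt described below, the shares were 3.02% and 4.12% in RPAD, against 3.51% and 3.60% in total RNA, and the groups overlapped.

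RPAD libraries listed 105 and 184 short introns, against 326 and 261 in total RNA, with no overlap (144.5 ± 55.9 in RPAD and 293.5 ± 46.0 in total RNA, SD, n = 2 each; exact permutation p = 0.333). The number of circles did not follow the number of introns. RPAD libraries listed 1022 and 2118 circles, against 1072 and 939 in total RNA, and the groups overlapped (mean 1570 ± 775 in RPAD and 1005.5 ± 94.0 in total RNA, SD, n = 2 each; exact permutation p = 0.667). Circles listed per intron were 9.73 and 11.5 in RPAD, against 3.29 and 3.60 in total RNA. Reads per circle were 8.14 and 4.29 in RPAD, against 1.40 and 1.52 in total RNA. RPAD thus listed fewer introns, each with more ends and more reads. Circles with 1 read were 17.8% and 34.7% of the circles in RPAD, against 74.9% and 70.6% in total RNA. Introns over 500 nt were also listed in smaller number in RPAD, 1176 and 1473 against 3651 and 2912 in total RNA, so the lower number was not particular to short introns.

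The totals of back-splice reads were matched by drawing 35981 reads, the smallest total, from each library, with values averaged over 20 draws. RPAD libraries then listed 667 and 940 circles, against 1021 and 939 in total RNA, so the direction of the mean difference in listed circles turned round. Listed introns were 85.9 and 131 in RPAD, against 316.5 and 261 in total RNA. Circles per intron were 7.78 and 7.18 in RPAD, against 3.23 and 3.60 in total RNA (mean 7.48 ± 0.420 in RPAD and 3.41 ± 0.262 in total RNA, SD, n = 2 per group, p = 0.333 by exact permutation). Reads per circle were then 2.97 and 1.82 in RPAD, against 1.38 and 1.52 in total RNA, a mean difference of 0.946 in place of 4.75. Circles with 1 read made up 43.1% and 62.1% in RPAD, against 75.8% and 70.6% in total RNA. Differences in introns, circles per intron and reads per circle kept their direction at equal totals, and that in reads per circle was several times smaller.

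Reads were concentrated on fewer introns in RPAD. The 10 introns with most reads in a library held 73.5% and 60.2% of its short-intron reads in RPAD, against 33.3% and 33.3% in total RNA (mean 66.8 ± 9.45% in RPAD and 33.3 ± 0.0174% in total RNA, SD, n = 2 per group, p = 0.333 by exact permutation). The leading intron alone held 25.5% and 13.9% in RPAD, against 10.6% and 9.27% in total RNA. No RPAD library overlapped a total RNA library in either measure.

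**Figure D1:**
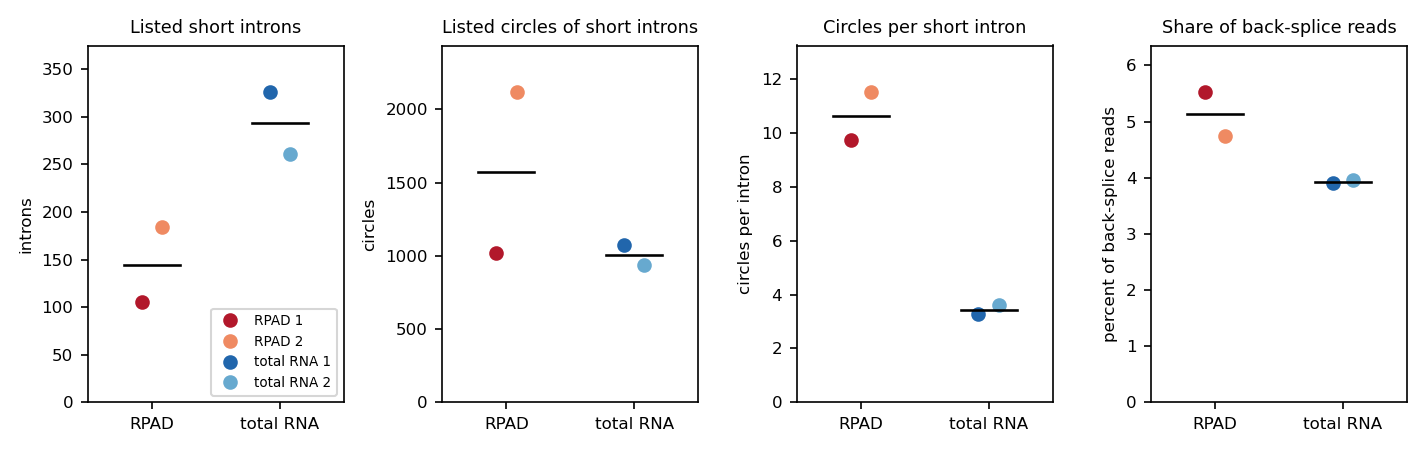
Values of short-intron circles in each library, with RPAD left of total RNA; each panel's y axis gives its measure, each point is 1 library and each black line a group mean. RPAD lies above total RNA in the share of reads (5.53% and 4.75% against 3.91% and 3.96%) and below it in listed introns (105 and 184 against 326 and 261).

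Within the short introns, the direction of the difference depended on intron length. Introns of up to 400 nt held 0.807% and 0.826% of back-splice reads in RPAD, against 1.59% and 1.43% in total RNA. Introns of 401 to 500 nt held 4.72% and 3.92% in RPAD, against 2.31% and 2.53% in total RNA. RPAD was lower in the shorter class and higher in the longer one, and the groups overlapped in neither. The means for introns of up to 400 nt were 0.817 ± 0.0129% in RPAD and 1.51 ± 0.119% in total RNA, a difference of -0.693 percentage points (SD, n = 2 each; exact permutation p = 0.333). For introns of 401 to 500 nt they were 4.32 ± 0.564% in RPAD and 2.42 ± 0.155% in total RNA, a difference of 1.90 percentage points (SD, n = 2 each; exact permutation p = 0.333). Without the chromosome 9 and chromosome 2 introns the shares of the longer class were 2.19% and 3.29% in RPAD, against 1.91% and 2.16% in total RNA. The difference was then 0.704 percentage points. The groups were only narrowly apart, at 2.19% in RPAD library 1 against 2.16% in total RNA library 2. RPAD library 1 still held there the 405 reads of the chromosome 12 intron of 484 nt, which no other library listed. The shares without that intron were not computed.

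By share, the finer classes were lower in RPAD up to 300 nt, overlapped at 301 to 400 nt and were higher above that. Introns of up to 200 nt, of which there were 51, had 4 and 45 reads in RPAD and 70 and 69 in total RNA, although the RPAD libraries held several times as many reads. These reads came from 1 and 4 introns in RPAD and from 28 and 20 introns in total RNA. Introns of 201 to 300 nt had 167 and 574 reads in RPAD and 244 and 215 in total RNA. As shares of back-splice reads these were 0.111% and 0.300% against 0.636% and 0.598%. Introns of 301 to 400 nt had 1044 and 960 reads in RPAD and 297 and 229 in total RNA. Their shares were 0.694% and 0.502% in RPAD, against 0.775% and 0.636% in total RNA, and the groups overlapped. Introns of 401 to 450 nt had 3074 and 3387 reads in RPAD and 279 and 302 in total RNA (2.04% and 1.77% against 0.728% and 0.839%). Of these, the chromosome 9 intron of 442 nt held 2120 in RPAD library 1. The chromosome 4 intron of 440 nt held 1265 in RPAD library 2. Introns of 451 to 500 nt had 4027 and 4112 reads in RPAD and 608 and 609 in total RNA (2.68% and 2.15% against 1.59% and 1.69%). The chromosome 2 intron of 497 nt held 1766 and 1252 of those in RPAD, and 159 and 132 in total RNA. Reads on the longest 2 classes made up 85.4% and 82.6% of all short-intron reads in RPAD, against 59.2% and 64% in total RNA. The median length of the listed introns was 413 and 408 nt in RPAD, against 358 and 383 nt in total RNA.

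**Figure D2:**
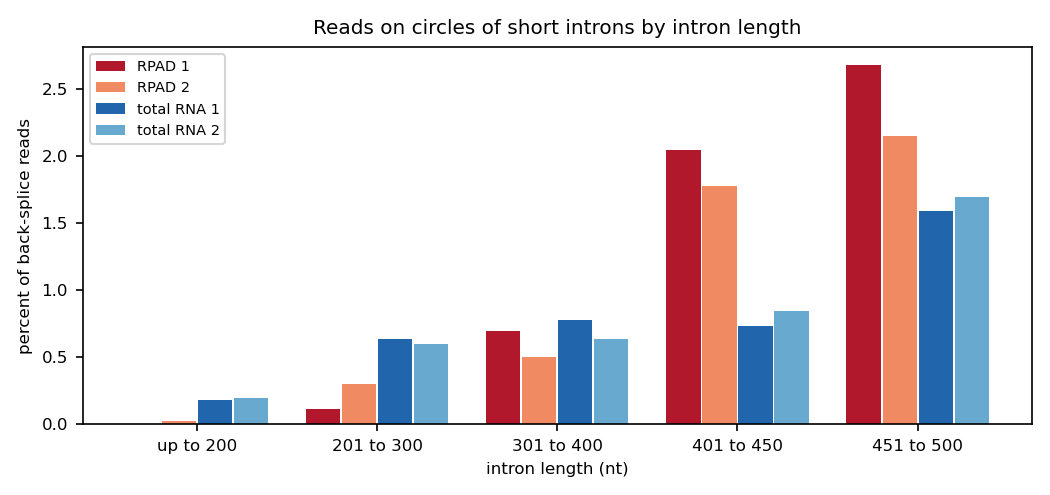
Percent of all back-splice reads (y axis) on circles of short introns, by intron length in nt (x axis), with 1 bar per library and RPAD left of total RNA. RPAD bars are the lower ones for introns of up to 300 nt and the higher ones for introns of 401 to 500 nt.

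The intron with the highest mean share of short-intron reads gave circles in all 4 libraries. It lies on the minus strand of chromosome 2 at 52057532 to 52058028, is 497 nt long, and is intron 96 or 105 of the transcripts that list it (ENSMUST00000036934 and an assembled model). It had 1766 and 1252 reads in RPAD, against 159 and 132 in total RNA. Relative to the other introns tested its log2 fold change was 0.36 (SE 1.35, edgeR quasi-likelihood test with Benjamini-Hochberg adjusted p = 0.995). The 10 circles with the highest mean share all came from this intron. The leading one, at 52057922 to 52058028 and 107 nt long, had 73 and 40 reads in RPAD and 7 and 12 in total RNA.

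Other leading introns had nearly all their reads in 1 RPAD library. The intron on the plus strand of chromosome 9 at 21536314 to 21536755, 442 nt long and intron 2 of ENSMUST00000034713, had 2120 and 3 reads in RPAD and 0 and 3 in total RNA. On the minus strand of chromosome 4, the intron of 440 nt at 43535673 to 43536112 had 0 and 1265 reads in RPAD and 11 and 19 in total RNA. On the plus strand of chromosome 5, the intron of 324 nt at 104865596 to 104865919 had 460 and 0 reads in RPAD and 9 and 8 in total RNA. In each of these, 1 RPAD library lay far above both total RNA libraries and the other had 0 or 3 reads. Their log2 fold changes were 6.36 (SE 3.54), 2.49 (SE 3.13) and 1.67 (SE 3.05), in that order, with adjusted p of 0.389, 0.884 and 0.949 by the same edgeR test with Benjamini-Hochberg adjustment. Leaving out the RPAD library that held the reads turned each of these signs round, to -1.71, -8.58 and -7.72. The chromosome 12 intron of 484 nt at 52901951 to 52902434 had 405 and 0 reads in RPAD and 0 and 0 in total RNA. It did not pass the low-count filter. Against the floor of 3 reads over the total RNA group, it was at least 29.3-fold higher in RPAD by pooled reads, all of them from RPAD library 1.

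Of the leading introns, 3 others held a larger share of short-intron reads in both RPAD libraries than in either total RNA library. On chromosome 1 the plus-strand intron of 451 nt at 75359595 to 75360045, intron 5 of ENSMUST00000027409, had 161 and 940 reads in RPAD and 6 and 7 in total RNA. On chromosome 11 the plus-strand intron of 463 nt at 67035186 to 67035648, intron 37 of ENSMUST00000018637, had 264 and 384 reads in RPAD and 12 and 24 in total RNA. The minus-strand intron of 464 nt at 106268910 to 106269373 of the same chromosome had 473 and 153 reads in RPAD and 18 and 7 in total RNA. Their fitted log2 fold changes were 3.47 (SE 2.202), 1.19 (SE 1.99) and 1.60 (SE 2.10), none of which passed the test. By contrast, the chromosome 11 intron of 409 nt at 5766514 to 5766922 had 55 and 469 reads in RPAD and 16 and 19 in total RNA. Its share was 0.661% and 5.17% in RPAD, against 1.07% and 1.33% in total RNA, and so was higher in RPAD library 2 alone. Its log2 fold change was 0.98 (SE 2.17), a value that turned to -1.27 without RPAD library 2.

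One leading intron was seen in total RNA alone, and others had reads in both kinds with no call. The minus-strand intron of 486 nt on chromosome 6 at 51411433 to 51411918 had 0 and 0 reads in RPAD and 60 and 123 in total RNA, where it held 4.01% and 8.64% of short-intron reads. It was at least 281-fold lower in RPAD against the floor of 3 reads over the group. Its length of 486 nt put it in the class that was higher in RPAD as a whole. The plus-strand intron of 493 nt on chromosome 7 at 149675312 to 149675804 had 0 and 190 reads in RPAD and 77 and 51 in total RNA. The plus-strand intron of 489 nt on chromosome 17 at 35967110 to 35967598 had 17 and 79 reads in RPAD and 28 and 24 in total RNA. Neither passed the test, with log2 fold changes of -2.34 (SE 2.91) and -2.05 (SE 2.204).

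**Figure D3:**
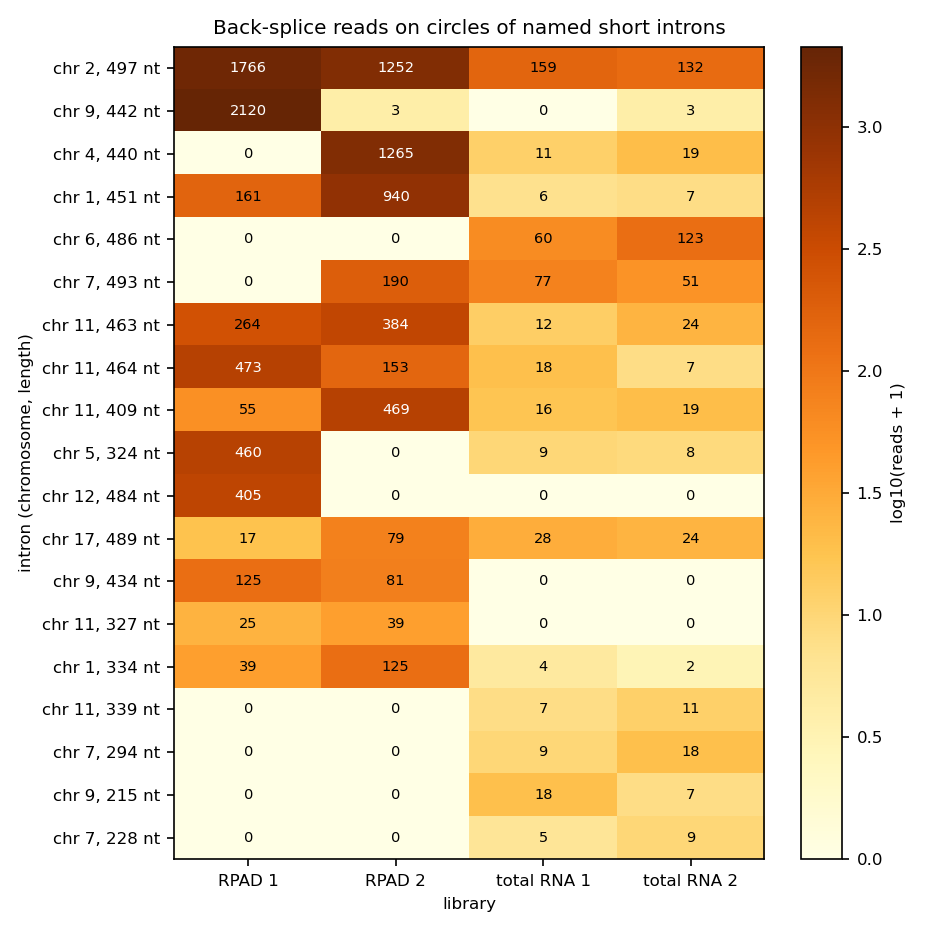
Back-splice reads (numbers) summed over the circles of each named short intron (rows, by chromosome and length) in each library (columns, RPAD left of total RNA), coloured by log10 of reads plus 1. The chromosome 2 intron of 497 nt is high in all 4 libraries, whereas the chromosome 9 intron of 442 nt has 2120 reads in RPAD library 1 and 3 in RPAD library 2.

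Abundance was tested over all 1019 introns of any length that passed the low-count filter, of which 62 were short introns. The other 642 short introns were not tested. No short intron passed the threshold of adjusted p under 0.05 (0 of 62, and 0 of all 1019, 0%). The smallest adjusted p of a short intron was 0.115 (edgeR quasi-likelihood test, Benjamini-Hochberg). At an unadjusted p under 0.05, 1 short intron was higher and 17 were lower in RPAD, against 0.491% and 28% of all introns tested. The log2 fold change was above 0 in 30 of the 62 and below 0 in 32 (51.6%, against 63.5% of all 1019). Its median over the 62 was -0.01, while the median over all 1019 was -0.97. Scaling by totals alone moved these medians to 0.40 and -0.53, and DESeq2 gave 0.14 and -0.78. An intron could pass the filter through either group, so these counts describe the tested introns alone.

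Other fits gave more calls. DESeq2 called 6 short introns, all lower and all with 0 reads in both RPAD libraries, where it called 13% of all introns tested. These 6 passed the filter through total RNA alone. Without RPAD library 1 edgeR called 15 short introns, with 27.2% of the 1019 introns called, and without RPAD library 2 it called 18, with 35.3% of the 1019 called. These fits hold a single RPAD library, which is assumed to vary like the total RNA libraries, so the spread between RPAD libraries does not enter them.

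The short intron with the smallest p among the higher ones was the minus-strand intron of 434 nt on chromosome 9 at 24913450 to 24913883. It had 125 and 81 reads in RPAD and 0 and 0 in total RNA, and was at least 14.9-fold higher in RPAD against the floor (edgeR adjusted p = 0.136, Benjamini-Hochberg). The minus-strand intron of 327 nt on chromosome 11 at 86096926 to 86097252 had 25 and 39 reads in RPAD and 0 and 0 in total RNA, at least 4.64-fold higher. The plus-strand intron of 334 nt on chromosome 1 at 93253998 to 93254331 had 39 and 125 reads in RPAD and 4 and 2 in total RNA, a log2 fold change of 1.81 (SE 1.88). In these 3 introns both RPAD libraries held more reads than both total RNA libraries, and none passed the test. The first 2 had 0 reads in both total RNA libraries and so passed the filter through RPAD alone.

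The 5 short introns with the smallest p among the lower ones all had an adjusted p of 0.115 by edgeR with Benjamini-Hochberg adjustment. Each had 0 reads in both RPAD libraries and so passed the filter through total RNA alone. Apart from the chromosome 6 intron of 486 nt, they were 215 to 339 nt long. The chromosome 7 intron of 294 nt at 26076789 to 26077082 had 9 and 18 reads in total RNA and was at least 41.4-fold lower in RPAD. The chromosome 9 intron of 215 nt at 98488249 to 98488463 had 18 and 7 reads in total RNA and was at least 38.3-fold lower. The chromosome 11 intron of 339 nt at 62147659 to 62147997, with 7 and 11 reads in total RNA, and the chromosome 7 intron of 228 nt at 123968106 to 123968333, with 5 and 9, were at least 27.6-fold and 21.5-fold lower. Of the 17 short introns that were lower at an unadjusted p under 0.05, 16 had 0 reads in both RPAD libraries. These 16 likewise passed the filter through total RNA alone. The exception, on chromosome 19 at 36192432 to 36192715 and 284 nt long, had 0 and 2 reads in RPAD and 22 and 12 in total RNA.

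By share of intronic reads, 10 of the 62 tested short introns (16.1%) were higher in both RPAD libraries than in both total RNA libraries, against 8.15% of all 1019. In the other direction 21 (33.9%) were lower in both RPAD libraries, against 36.4% of all. These shares are descriptions of the tested introns.

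No single circle was called. Of the 4552 circles, 67 passed the filter among 924 circles of all types, and 50 of the 67 came from the chromosome 2 intron of 497 nt. None was called by edgeR (0 of 924 in all, 0%), also without RPAD library 1 (19.9% of all 924 called) or RPAD library 2 (23.2%), or by DESeq2 (2.06% of all 924), and 0 of the 67 had an unadjusted p under 0.05 with edgeR, against 1.73% higher and 15.8% lower among all. The log2 fold change was above 0 in 45 of the 67 and below 0 in 22 (56 and 11 with DESeq2). Those below 0 were 32.8% of the 67 (16.4% with DESeq2), against 53.9% of all 924 (45.8% with DESeq2). With edgeR, 38 of the 45 above 0 came from the chromosome 2 intron, whose circles are not independent. Among the 17 tested circles of other introns, 7 were above 0 and the median was -0.15. The median of all 924 was also -0.15. The smallest p was that of the 140 nt circle of the chromosome 2 intron at 52057889 to 52058028, with 43 and 11 reads in RPAD and 0 and 0 in total RNA (edgeR adjusted p = 0.341, Benjamini-Hochberg). The 106 nt circle at 106269268 to 106269373 on chromosome 11 had 26 and 17 reads in RPAD and 0 and 0 in total RNA. Both of these circles passed the filter through RPAD alone. Among the lower circles, the 109 nt circle at 149675312 to 149675420 on chromosome 7 had 0 and 3 reads in RPAD and 7 and 2 in total RNA.

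Few short introns recurred between libraries of the same kind. Of 257 short introns listed in RPAD, both RPAD libraries held 32 (12.5%, exact interval 8.67 to 17.1), against 76 of 511 (14.9%, 11.9 to 18.3) in both total RNA libraries. For circles the shares were 185 of 2955 (6.26%, 5.41 to 7.20) in RPAD and 132 of 1879 (7.03%, 5.91 to 8.28) in total RNA. The intervals for circles treat circles of 1 intron as independent, which they are not, and so are too narrow. The chromosome 2 intron of 497 nt gave 62 of the 185 and 39 of the 132. Without that intron the shares of circles were 4.26% in RPAD and 5.11% in total RNA. Introns with at least 1 circle in both kinds of RNA numbered 64, which was 24.9% of those of RPAD and 12.5% of those of total RNA.

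High read counts did not ensure recurrence. Of 44 short introns with at least 20 reads in RPAD library 1, 23 (52.3%) had 0 reads in RPAD library 2. Of 62 with at least 20 reads in RPAD library 2, 47 (75.8%) had 0 in RPAD library 1. In total RNA, 37 of 71 introns (52.1%) with at least 5 reads in library 1 had 0 in library 2, and 43 of 75 (57.3%) the other way round. Of the 25 introns that reached 5 reads in each total RNA library, RPAD libraries 1 and 2 both listed 9 (36.0%, exact interval 18 to 57.5), 1 of them listed 7, and 9 were listed by neither.

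The 16 short introns listed in all 4 libraries were 215 to 497 nt long, and 14 of them were over 400 nt. They gave 729 circles, 16% of the 4552. They held 39.2% and 42.4% of short-intron reads in RPAD, against 20.7% and 18.1% in total RNA. Of the 46 circles listed in all 4 libraries, 39 belonged to the chromosome 2 intron of 497 nt. The rest were 3 of a chromosome 5 intron of 413 nt, 3 of the chromosome 11 intron of 464 nt and 1 of the chromosome 11 intron of 409 nt.

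Circle ends lay in dense runs along an intron. An intron had a median of 2 distinct ends over the 4 libraries, 263 introns (37.4%) had 1, and the maximum was 117. The 116 introns with at least 10 ends held 3060 circles (67.2%). Between neighbouring ends of these introns the gap was 1 nt in 1678 of 2944 cases (57.0%) and at most 3 nt in 83.1%. An intron with many circles was thus typically a ladder of listed circles that shared the 5′ splice site, with ends often 1 nt apart. Ends were pooled over the 4 libraries, and at least 10 ends in a short intron make small gaps likely. Whether each listed end is a separate RNA was not tested.

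In the chromosome 2 intron of 497 nt the ladder was filled without a gap once the libraries were put together. It had 68 ends over the 4 libraries, which were every position from 100 to 167 nt downstream of the 5′ splice site. Libraries listed 64 and 66 of these ends in RPAD and 57 and 42 in total RNA, and 39 were listed in all 4. The median circle length over reads was 129 and 127 nt in RPAD and 128 and 127 nt in total RNA. The run of ends and its middle were therefore much alike in all libraries. The chromosome 11 intron of 464 nt was of the same kind, with 29 ends from 99 to 128 nt, 25 of the 29 shared by both RPAD libraries, and medians of 114 and 114 nt in RPAD and 113 and 117 nt in total RNA.

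In other introns the zone of the ends differed between the 2 RPAD libraries. The chromosome 1 intron of 451 nt had the most ends, 117. RPAD library 1 listed 28 and RPAD library 2 listed 87, and only 2 of these 113 were shared. The median circle length over reads was 302 and 164 nt in RPAD and 294 and 343 nt in total RNA. All reads of RPAD library 1, 8.72% of those of RPAD library 2, and 100% and 85.7% of those of the total RNA libraries were on circles over 200 nt.

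The chromosome 11 introns of 463 and 409 nt behaved likewise. In the intron of 463 nt, circles over 300 nt held 259 of 264 reads (98.1%) and 24 of 384 reads (6.25%) in RPAD, against 8 of 12 (66.7%) and 16 of 24 (66.7%) in total RNA. In the intron of 409 nt, circles over 200 nt held 100% and 8.10% of the reads in RPAD, against 50% and 52.6% in total RNA. In these introns the RPAD libraries differed from each other in which stretch of the intron was listed as circular, and not in read number alone. These introns were chosen for their read share or number of ends and the zones were compared after their values were seen.

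**Figure D4:**
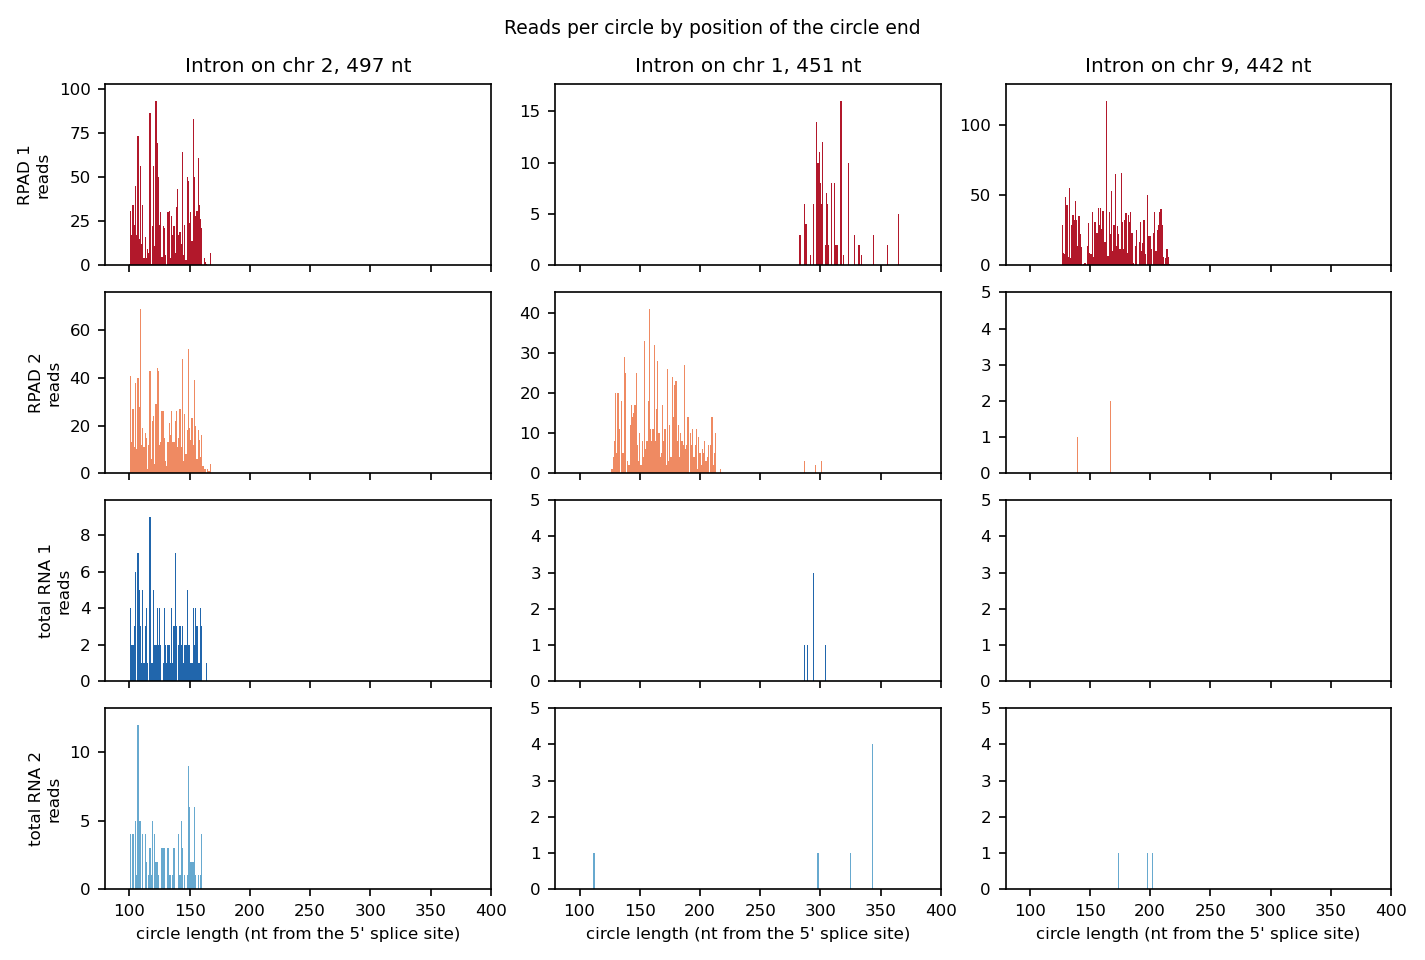
Reads per circle (y axis, own scale in each panel) against circle length in nt from the 5′ splice site (x axis) for 3 introns (columns) in each library (rows, RPAD above total RNA). In the chromosome 2 intron the ends of all 4 libraries lie between 100 and 167 nt, whereas in the chromosome 1 intron RPAD library 1 lies above 200 nt and 8.72% of the reads of RPAD library 2 do.

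The bulk of the circles had a like length in every library, while the long tail did not. The median circle was 139 and 131 nt long in RPAD, against 130 and 136 nt in total RNA. Circles of 100 to 200 nt made up 82.7% and 91.5% in RPAD, against 91.2% and 82.4% in total RNA. Circles under 100 nt made up 0.489% and 0.425% in RPAD, against 0.840% and 0.532% in total RNA. Few circles were thus shorter than 100 nt in any library, and the groups overlapped in the median and in the share of 100 to 200 nt. Circles over 200 nt made up 16.8% and 8.12% in RPAD, against 7.93% and 17.0% in total RNA. Circles over 300 nt made up 5.38% and 1.37% in RPAD, against 0.840% and 4.69% in total RNA. Circles over 300 nt were thus several times as frequent in 1 library of each kind as in the other. Those over 200 nt differed in the same way by a smaller factor, and the groups overlapped in both.

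Where a circle ended along the intron varied with intron length, which the rule and the near absence of circles under 100 nt partly fix. In introns of up to 200 nt the median circle was 118.5 and 106 nt long in RPAD and 113 and 108 nt in total RNA, and in introns of 451 to 500 nt it was 140.5 and 132 nt in RPAD and 132 and 135 nt in total RNA. In introns of up to 200 nt the median end lay 72.5 and 55.5 nt from the 3′ end in RPAD and 70 and 72 nt in total RNA. This was past the middle of the intron, where nearly any circle of at least 100 nt must end in such an intron. Over all short introns the median circle spanned 33.9% and 32.4% of its intron in RPAD, against 35.4% and 37.3% in total RNA. The stretch from 20% to 30% of the intron's length held the end of 34.3% and 39.0% of circles in RPAD, against 30.8% and 32.1% in total RNA. Ends before the midpoint of the intron were 80.2% and 87.2% in RPAD, against 76.8% and 69.6% in total RNA, with no overlap. The median end lay 279 and 281 nt from the intron's 3′ end in RPAD, against 248 and 247 nt in total RNA, where the listed introns were also shorter.

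**Figure D5:**
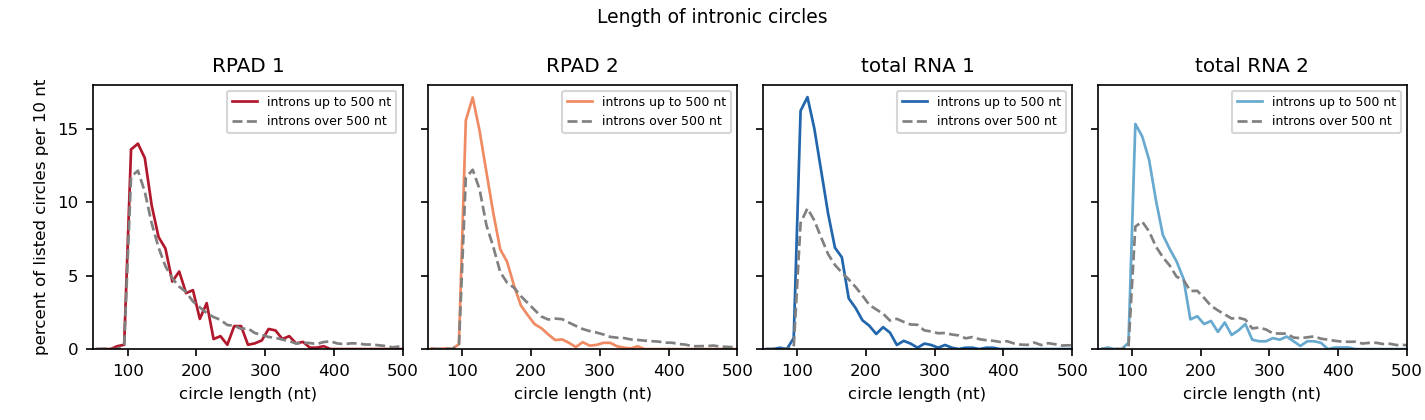
Length of intronic circles in nt (x axis) as a percent of the listed circles per 10 nt (y axis), 1 panel per library with RPAD left of total RNA, with a solid line for introns of up to 500 nt and a dashed grey line for introns over 500 nt. For short introns all 4 libraries have their bulk between 100 and 200 nt, with medians of 139 and 131 nt in RPAD and 130 and 136 nt in total RNA.

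Set against intronic circles of introns over 500 nt, which were chosen by the same rule on the circle end, short introns gave fewer circles each. Circles per intron were 9.73 and 11.5 for short introns and 11.8 and 15.9 for longer ones in RPAD, and 3.29 and 3.60 against 4.22 and 4.64 in total RNA. Short introns were lower in 4 of 4 libraries (mean difference -2.10, SD 1.61; exact two-sided sign-flip test over libraries, p = 0.125, the smallest it can give, and 0.188 after Benjamini-Hochberg adjustment over 12 tests). With 4 libraries none of these 12 tests could pass 0.05, so they are read by size and by the number of libraries. As a description, the median circle was 149 and 149 nt long in RPAD and 165 and 171 nt in total RNA for longer introns, so circles of short introns were shorter by 10 nt or more in each library. The rule itself keeps circles of short introns under 450 nt, so part of this difference is fixed by it.

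Short introns were intron 1 of their transcript more often than longer ones. The shares were 10.5% and 13.6% of short introns against 5.95% and 8.62% of longer ones in RPAD, and 14.1% and 13.4% against 7.15% and 7.18% in total RNA. Reads per circle were 8.14 and 4.29 against 6.18 and 3.84 in RPAD, and 1.40 and 1.52 against 1.32 and 1.39 in total RNA. The share of circles also listed in the other library of the group was 18.1% and 8.73% against 11.4% and 6.71% in RPAD, and 12.3% and 14.2% against 8.18% and 9.32% in total RNA. All 3 measures were higher for short introns in 4 of 4 libraries (exact sign-flip p = 0.125, adjusted 0.188, for each). The sizes of the differences in reads per circle and in recurrence rested on single introns. Without the chromosome 2 intron of 497 nt, short introns were higher in 3 of 4 libraries in both, with mean differences of 0.171 reads per circle (exact sign-flip p = 0.375) and 0.723 percentage points (exact sign-flip p = 0.25), in place of 0.652 and 4.43. Without the chromosome 9 intron of 442 nt the difference in reads per circle was 0.271, and that in recurrence was 4.77 percentage points. The number of an intron is that in the transcript named for it in a library's list, and the lists can name different transcripts for the same intron.

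Against the 570 intronic circles that ended within 50 nt of the 3′ end, circles of short introns recurred more often. They were listed in the other library of the group in 18.1% and 8.73% of cases against 3.00% and 4.69% in RPAD, and in 12.3% and 14.2% against 3.27% and 3.26% in total RNA. Short introns also had more circles each, 9.73 and 11.5 against 3.70 and 3.20 in RPAD, and 3.29 and 3.60 against 1.95 and 2.05 in total RNA. Both held in 4 of 4 libraries (exact sign-flip p = 0.125, adjusted 0.188). The rule leaves circles near the 3′ end a stretch of 50 nt for their end, and circles of short introns usually more. Part of the difference in circles per intron is therefore fixed by it. Reads per circle were higher for short introns in 2 of 4 libraries (exact sign-flip p = 0.5). The deposited score was 0 for 65.6% and 58.8% of short-intron circles in RPAD and 47.4% and 49.3% in total RNA. These shares were higher in 4 of 4 libraries than for the circles near the 3′ end. For circles of longer introns they were 65.7% and 65.0% in RPAD and 62.2% and 65.5% in total RNA. Short introns were thus lower in 4 of 4 libraries, but the classes were nearly equal in RPAD library 1. No source used here says what that score means.

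At the limits of the rule, introns of exactly 500 nt numbered 3, with 5 and 2 reads in RPAD and 2 and 0 in total RNA. Those of 501 nt numbered 6, with 0 and 0 reads in RPAD and 9 and 7 in total RNA. Introns of 491 to 500 nt had 1795 and 1653 reads in RPAD and 309 and 238 in total RNA, most of them from the chromosome 2 intron of 497 nt. Introns of 501 to 510 nt had 255 and 366 reads in RPAD and 84 and 208 in total RNA. These are read counts, and the RPAD libraries held several times as many back-splice reads. Circles ending 51 to 60 nt from the 3′ end numbered 81, with 26 and 55 reads in RPAD and 39 and 36 in total RNA. Those ending 41 to 50 nt from it numbered 99, with 69 and 81 reads in RPAD and 40 and 44 in total RNA.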

How the data were processed

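RNA of 4 C2C12 libraries, 2 RPAD and 2 total RNA, was amplified with 17 cycles of PCR and no molecular identifiers, per the labels' protocols. Intervals and floors therefore cover no error other than counting. The submitters' processing notes name mm9, Cufflinks 2.2.1, TopHat and cutadapt. For the junction caller, the name was not given in the sources used. The deposited values are raw counts of back-splice reads per circle, per the file headers. The deposited score (0 to 3) has no stated meaning and was used for 1 alternative and as a measure.

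The members and lists were chosen with earlier results of these data known. Groups came from the sample titles. A circle was a chromosome, start, end and strand, and was given 0 reads where not listed. There were 5151 listed entries, and 57 mitochondrial ones were left out. In the files, 11 circles met the rule in 1 library and not in another, because they were paired with another intron, and counted as listed only where they met it.

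Counts per circle (all types) and per intron (all lengths) were tested with edgeR 4.0.16 in R 4.3.3 (quasi-likelihood F test, TMM, filterByExpr with minimum count 5 and total 10, Benjamini-Hochberg threshold 0.05), after tests on simulated data. The SE is the log2 fold change divided by the square root of F. DESeq2 1.42.0 was an alternative. Shared replicate numbers did not establish a pairing. Library values were compared by exact permutation, and classes by exact sign-flip. Intervals are 95% Clopper-Pearson. Bounds on folds take a floor of 3 reads over the group. Named introns were the 12 with the highest mean share, the 5 with most distinct circles and, since none passed, the 5 of lowest p in either direction; circles likewise (10 and 3). Other values were computed in Python 3.11.15 with scipy 1.17.1, pandas 2.3.3, numpy 2.4.6 and, for figures, matplotlib 3.10.9. Circles per intron, the share of the top 10 introns, the score and intron 1 measures, and leaving out single introns were added after seeing the data. No sequence was read, since an mm9 genome was not used here.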

Additional observations from a re-analysis of the deposited data

How the results depend on the processing

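With an intron limit of 400 nt in place of 500 nt, the difference between RPAD and total RNA (RPAD minus total RNA) in the share of back-splice reads turned to -0.69 percentage points and that in the share of listed circles to -0.339. After thinning, listed circles differed by -177. With at least 2 or 5 reads per circle, listed introns differed by 9.5 and 55.5 (totals of reads were not matched there). With at least 5 reads the share on the 10 leading introns differed by -19.8. That value cannot be read as a reversal, since total RNA libraries then listed 6 and 9 introns and their share was fixed at 100%. The share of circles listed in both RPAD libraries was 2.21% with the 400 nt limit, 8.18% with at least 5 reads, 4.26% without the chromosome 2 intron of 497 nt and 4.32% without it and the chromosome 9 intron of 442 nt. In total RNA it was 1.97%, 5.11% and 5.12% with the 400 nt limit, without the chromosome 2 intron and without both. DESeq2 called 6 short introns, and leaving out 1 library gave 0 to 18 calls of introns and 0 of circles. Leaving out 1 library, the difference in single-read circles from circles near the 3′ end ranged from -5.55 to 3.06 percentage points. Log2 fold changes then ranged from -1.71 to 12.47 for the chromosome 9 intron of 442 nt, from -8.58 to 3.56 for the chromosome 4 intron, from -7.72 to 2.81 for the chromosome 5 intron and from -1.27 to 1.90 for the chromosome 11 intron of 409 nt, and from -0.039 to 2.02 and from -0.19 to 0.33 for the circles of the chromosome 2 intron at 52057876 and 52057922. With score 0 junctions alone they were -0.68 for the chromosome 4 intron and -1.08 for the chromosome 11 intron of 409 nt. A replicate block gave 0 calls and turned the chromosome 4 intron to -2.15 and the chromosome 5 intron to -2.22; the deviations of RPAD and total RNA library 1 correlated at 0.0816 over 1019 introns. The cause of these changes was not tested. Over all alternatives, 160 library-level values kept their direction and side of the threshold and 17 reversed or moved. The 17 include the fixed share on the 10 leading introns. Sizes of differences could still fall. The share of reads fell to 0.0186 percentage points without both introns. Reads per circle fell to 0.946 after thinning, and listed circles to 23.5 with the 400 nt limit. For single introns and circles, 298 values kept both direction and side, and 28 did not. Of these 28, 10 reversed direction, and some of the 10 also changed side of the threshold. The other 18 kept their direction and passed the threshold only under the alternative. Of 4552 circles, 67 had enough reads to be tested. Leaving out a library could not be done for the share listed in both libraries.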

Other observations

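Some short introns bordered an exonic circle. Over all libraries 33 of the 704 introns did (4.69%, exact interval 3.25 to 6.52), against 436 of 6990 longer introns (6.24%, 5.68 to 6.83). Counted against exonic circles of the same library, these were 0 of 105 and 3 of 184 short introns in RPAD, against 10 of 326 and 9 of 261 in total RNA. The shares of longer introns were 1.45% and 1.56% in RPAD, against 3.26% and 3.297% in total RNA, so both classes of intron had lower values in RPAD. The difference between the classes was not tested. A circle ending within 50 nt of the 3′ end was listed for 53 of the 704 short introns (7.53%).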
